A study of Homo sapiens with 6 samples.

Results

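The genes described here are those of the cadherin switch and of the epithelial-mesenchymal transition (EMT): CDH1, CDH2, VIM, FN1, SNAI1, SNAI2, ZEB1, ZEB2, TWIST1 and TWIST2. They were chosen by name, with earlier results of these data known. By symbol, 9 of the 10 were found among the 36517 genes of the count table. TWIST2 was not analysed here, since no gene of the table, in which each gene has at least 1 count in some library, carries that symbol. Messenger RNA of MDA-MB-453, a human breast cancer cell line with luminal features, was sequenced at day 3. The 3 control libraries came from cells given the non-targeting hairpin shNC by lentivirus. In the 3 shtRF libraries the virus delivered shtRF-1-Ser instead, a hairpin that targets a small RNA made from a serine transfer RNA precursor (genotype label tRF-1-Ser knock down). Both groups therefore carry a lentiviral hairpin, and an untransduced group was not analysed here. The small RNA itself is not measured by these libraries, so the group names rest on the labels. The sources do not say whether replicates were separate transductions or dishes of 1 transduced population, and p-values measure only the spread between these libraries.

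In EMT, epithelial cells lose their contacts and take on a motile, fibroblast-like state. E-cadherin, encoded by CDH1, holds epithelial cells together at adherens junctions, while N-cadherin, encoded by CDH2, marks neural and mesenchymal cells, and the exchange of the former for the latter is known as the cadherin switch. The SNAI and ZEB zinc finger proteins and the TWIST helix-loop-helix proteins bind E-boxes in DNA and are known as repressors of CDH1 or inducers of mesenchymal genes such as VIM and FN1.

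To show the sequence that this family of factors reads, the bases upstream of 3 of the genes are printed below, 5′ to 3′ on the gene's strand, from RefSeq (GRCh38.p14), with each E-box (CANNTG, which reads the same on both strands) in capitals. ZEB1 was the only transcription factor among the 10 genes with enough counts to be tested, and VIM and FN1 are mesenchymal genes that such factors are known to induce. The ZEB1 window is chr10:31318167-31318416 (plus strand), that of VIM is chr10:17227991-17228240 (plus strand), and that of FN1 is chr2:215436173-215436318 (minus strand, 146 bases that lie outside its exons in the count table).
ZEB1: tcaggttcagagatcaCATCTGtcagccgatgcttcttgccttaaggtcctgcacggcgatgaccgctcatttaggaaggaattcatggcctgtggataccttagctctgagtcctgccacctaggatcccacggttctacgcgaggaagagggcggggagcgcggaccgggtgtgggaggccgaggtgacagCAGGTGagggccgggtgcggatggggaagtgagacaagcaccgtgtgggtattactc
VIM: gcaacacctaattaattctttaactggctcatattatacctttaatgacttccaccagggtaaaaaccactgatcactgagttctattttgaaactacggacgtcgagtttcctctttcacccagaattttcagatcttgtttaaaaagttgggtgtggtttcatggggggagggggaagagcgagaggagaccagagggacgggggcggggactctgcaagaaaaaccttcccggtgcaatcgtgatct
FN1: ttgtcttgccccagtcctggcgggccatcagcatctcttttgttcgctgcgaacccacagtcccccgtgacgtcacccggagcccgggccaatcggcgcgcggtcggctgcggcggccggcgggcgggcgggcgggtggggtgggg
The ZEB1 window holds 2 E-boxes, CATCTG at position -234 and CAGGTG at position -57, counted from the transcription start to the first base of the motif. The latter is the reverse complement of CACCTG, the form bound by the ZEB and SNAI proteins. In VIM and FN1, no E-box lies in the 250 bases before the start, and the same holds for CDH2 and TWIST2, while ZEB2 has 1 (CACATG at position -180). The windows at hand covered 6 of the 10 genes, and CDH1, SNAI1, SNAI2 and TWIST1 were not searched. For each gene searched, the RefSeq start farthest upstream was used, but the windows are unlike. Those of CDH2 and ZEB2 lie wholly within exons of the count table, that of FN1 does in part, and those of VIM and ZEB1 do not. Of 35116 RefSeq promoter windows of 250 bases, 61.8% hold an E-box and 17.5% hold CACCTG on either strand. A match is a description of the letters and says nothing about binding in these cells.

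The libraries held 63541413 to 78917459 counts, so that 3 counts, taken as the floor of detection, corresponded to 0.0380 to 0.0472 CPM (counts scaled to a common library total). Counts of 1 to 4 were even in 74.2% to 77.1% of cases, against 49.7% to 50.7% of counts of at least 1000, so a count of 2 can stand for a single read pair. Intervals and floors cover counting error only. All 8 luminal markers examined were above 1 RPKM (counted reads divided by exonic length and library total) in every library, with EPCAM between 194 and 216 RPKM and KRT19 between 435 and 484 RPKM. The 4 leukocyte markers and the 4 endothelial markers were below 0.1 RPKM in every library. Of the 5 fibroblast markers with a value, 4 were below 0.1 RPKM, and COL1A1 was at 2.04 to 3.64 RPKM. In bulk RNA, fewer cells of a kind and less RNA per cell cannot be told apart.

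The levels of the 9 genes were compared on the length-normalised scale. Control cells held 3.06 ± 0.170 RPKM of CDH1 (SD, n = 3), followed by CDH2 at 2.18 ± 0.0524 RPKM. FN1 came next at 0.277 ± 0.0301 RPKM, with ZEB1 at 0.193 ± 0.0632 RPKM. CDH1 and CDH2 did not overlap in control, nor did CDH2 and FN1, which were 7.86-fold apart, whereas FN1 and ZEB1 overlapped. SNAI2, ZEB2, SNAI1, TWIST1 and VIM were below 0.05 RPKM in every library of either group, and neighbours in that order overlapped in control. The widest gap in control was that between ZEB1 and SNAI2, at 14.1-fold. In shtRF cells CDH1 stood at 3.59 ± 0.242 RPKM and CDH2 at 0.80 ± 0.115 RPKM. ZEB1 now ranked before FN1, at 0.277 ± 0.0337 and 0.225 ± 0.0131 RPKM, and these 2 did not overlap. Averaged over the 6 libraries, CDH1 stood above 77.1% and CDH2 above 68.1% of all genes in the table, FN1 above 52.2% and VIM above 1.9%.

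**Figure D1:**
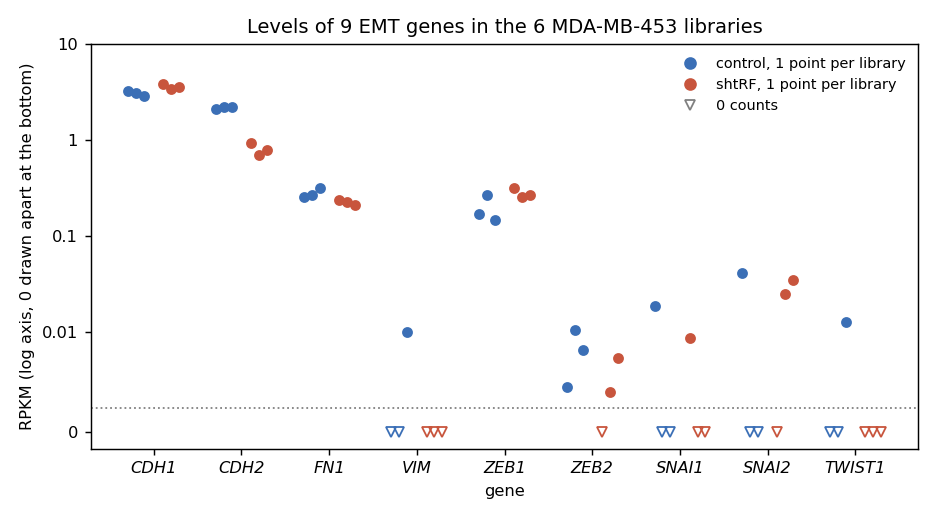
RPKM on a log axis for 9 EMT genes, with 1 point per library (blue, control, n = 3; red, shtRF, n = 3) and open triangles for libraries with 0 counts. CDH2 is lower in every shtRF library, CDH1 and CDH2 are the only genes of the 9 above 0.5 RPKM, and VIM, SNAI1 and TWIST1 are mostly at 0.

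Only 4 of the 9 genes (CDH1, CDH2, FN1 and ZEB1) had enough counts to be tested. With edgeR's quasi-likelihood test and an adjusted p under 0.05, 3 of these 4 were called, CDH1 and ZEB1 higher and CDH2 lower in shtRF, where 39.5% of the 19628 genes tested were called. The fall of CDH2 was also over 2-fold, which held for 5.77% of tested genes in either direction and for 3.11% as a fall. With so few members tested, the count of calls itself is a description, and the genes are taken in turn below by their role.

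The cadherins came first. CDH2 (chromosome 18, 27950966 to 28177446, minus strand, GRCh38) had 671, 810 and 858 counts in control and 319, 247 and 244 in shtRF. All 3 shtRF libraries were well below the lowest control. Scaled to the library, N-cadherin mRNA fell from 10.6 ± 0.243 to 4.02 ± 0.479 CPM (SD, n = 3), to 38.0% of control. On the log2 scale the difference was -1.40 ± 0.11 (SE, 95% interval -1.62 to -1.17; edgeR adjusted p = 7.29e-10), and CDH2 ranked 353 among the 19628 tested genes from the largest fall.

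CDH1 (chromosome 16, 68737225 to 68835548, plus strand) moved the other way and by far less. It had 1265, 1414 and 1400 counts in control and 1656, 1485 and 1400 in shtRF. After scaling, the libraries read 19.4, 18.7 and 17.5 CPM in control and 23.6, 21.6 and 22.6 CPM in shtRF. The groups thus no longer touched, as in 48.7% of the genes tested. E-cadherin mRNA rose 1.22-fold (95% interval 1.10 to 1.35), or by 0.28 ± 0.07 (SE) on the log2 scale (edgeR adjusted p = 0.00288). The call was lost with limma-trend on log2(RPKM + 1), at a difference of 0.18 (adjusted p = 0.0731), and with a pseudocount of 0.1, at 0.22 (adjusted p = 0.0663). The antisense gene RP11-354M1.2 shares 5.62% of the exonic bases of CDH1 and was also higher in shtRF, from 4.01 ± 0.194 to 5.93 ± 0.149 CPM (log2 fold change 0.56, edgeR adjusted p = 0.00042). Whether the counting used strand is not given in the sources used here, so reads of CDH1 and of this partner cannot be told apart over the shared bases.

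Because both cadherins were measured in the same libraries, their balance could be read within each one. Of the summed RPKM of both, CDH2 made up 39.8%, 41.7% and 43.3% in control and 19.4%, 17.2% and 17.9% in shtRF. The shares were close together within groups and far apart between them. The ratio of CDH2 to CDH1 fell from 0.714 ± 0.0515 to 0.222 ± 0.0168 (SD, n = 3), a difference of -1.69 on the log2 scale. An exact two-sided permutation test over the 6 libraries gave p = 0.1, the smallest value that 3 against 3 allows. CDH1 thus remained the more abundant of the pair in both groups, by 1.40-fold in control and 4.49-fold in shtRF.

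**Figure D2:**
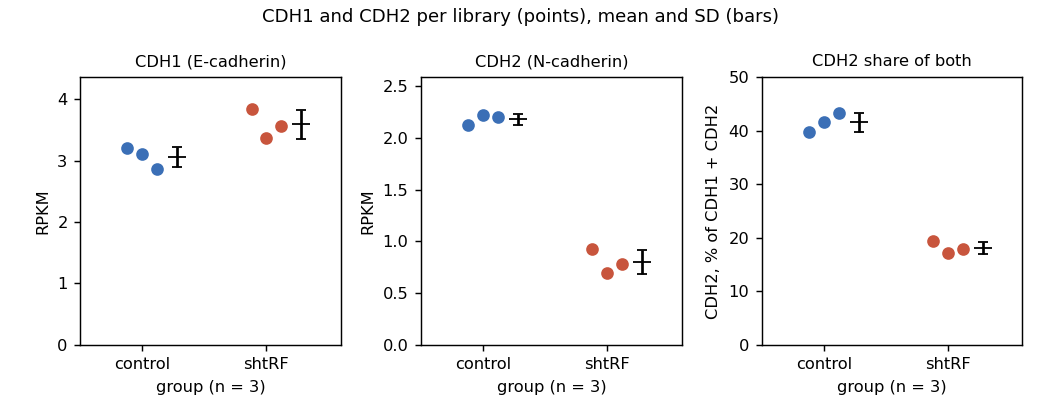
RPKM of CDH1 (left) and CDH2 (middle), and the share of CDH2 in the sum of both in percent (right), per library (points; blue, control; red, shtRF) with the mean and SD (bars, n = 3). The share of CDH2 lies between 39.8% and 43.3% in control and between 17.2% and 19.4% in shtRF.

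The mesenchymal effectors stood at very different levels. FN1 (chromosome 2, 215360440 to 215436172, minus strand) encodes fibronectin, a glycoprotein of the extracellular matrix. It had 284, 336 and 426 counts in control and 287, 280 and 233 in shtRF, or 4.37, 4.45 and 5.34 CPM against 4.09, 4.08 and 3.76 CPM. Each shtRF library was below each control library, a pattern shown by 48.7% of the genes tested in one direction or the other. The difference missed the threshold, with a log2 fold change of -0.25 ± 0.13 (SE, 95% interval -0.51 to 0.02; edgeR adjusted p = 0.131).

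VIM (chromosome 10, 17228259 to 17237593, plus strand) encodes vimentin, the intermediate filament protein of mesenchymal cells. It had 4 counts in control replicate 3 and 0 in the other 5 libraries, and was therefore below detection in 5 of 6. A sum of 0 among 204708455 shtRF counts allows a level of up to 0.0147 CPM by the floor of 3 counts and 0.0180 CPM by the exact Poisson limit, and the 4 counts among 216535217 in control correspond to 0.0185 CPM (exact Poisson interval 0.00503 to 0.0473). These limits take counts as independent and would be wider for paired reads. No difference was detectable at this depth. The antisense genes VIM-AS1 and RP11-124N14.3, which share 12.4% and 12% of its exonic bases, had at most 2 counts in any library.

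Of the 6 transcription factors among the 10 genes, ZEB1 alone was abundant enough to be tested. ZEB1 (chromosome 10, 31318495 to 31529814, plus strand) had 93, 169 and 100 counts in control and 190, 155 and 146 in shtRF. Control replicate 2 lay level with the shtRF libraries, at 2.24 CPM against 2.26 CPM in the lowest of them, while the other 2 controls were at 1.43 and 1.25 CPM. ZEB1 rose from 1.64 ± 0.525 to 2.44 ± 0.236 CPM (SD, n = 3), with a log2 fold change of 0.57 ± 0.20 (SE, 95% interval 0.15 to 0.99; edgeR adjusted p = 0.0292). In RPKM the groups overlapped. This call did not hold in every fit with 1 library left out. It held without control replicate 2 (log2 fold change 0.86, edgeR adjusted p = 0.00245) and without shtRF replicate 2 (0.63, adjusted p = 0.042). It was lost without control replicate 1 (log2 fold change 0.48, edgeR adjusted p = 0.108), control replicate 3 (0.41, adjusted p = 0.133), shtRF replicate 1 (0.48, adjusted p = 0.121) or shtRF replicate 3 (0.60, adjusted p = 0.0559). It was also lost with limma-trend on log2(RPKM + 1), at 0.10 (adjusted p = 0.142), and on log2(RPKM + 0.1), at 0.38 (adjusted p = 0.149). Its antisense neighbour ZEB1-AS1, named although its overlap of 4.23% of the exonic bases of ZEB1 is below the 5% used for naming, did not pass the test (log2 fold change -0.43, edgeR adjusted p = 0.327).

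**Figure D3:**
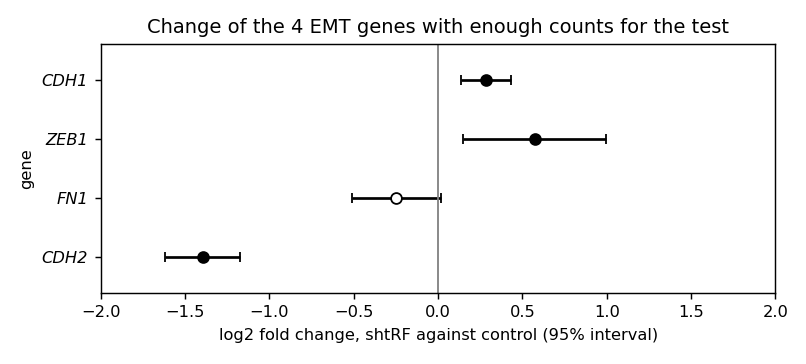
Log2 fold change of shtRF against control with its 95% interval for the 4 tested genes, from edgeR's quasi-likelihood fit over all genes, with filled symbols for an adjusted p under 0.05 and an open symbol otherwise. CDH2 lies at -1.40, CDH1 and ZEB1 lie above 0, and the interval of FN1 reaches 0.02.

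The other factors were at or near the floor and were not tested. ZEB2 (chromosome 2, 144384081 to 144524583, minus strand), the paralogue of ZEB1, had 4, 18 and 12 counts in control and 0, 4 and 8 in shtRF. The groups overlapped, and the summed level was 0.157 CPM in control (exact Poisson interval 0.109 to 0.219) and 0.0586 CPM in shtRF (0.0303 to 0.102). When all 36517 genes were fitted without a filter, its log2 fold change was -1.29 ± 0.86 (SE, 95% interval -2.98 to 0.40; edgeR adjusted p = 0.375). Taken as 17 and 6 read pairs, a choice made after seeing the data, the sums have intervals of 0.0915 to 0.251 and 0.0215 to 0.128 CPM, which overlap, and neither set includes the spread between libraries, which the fit does.

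SNAI2 (chromosome 8, 48917690 to 48921740, minus strand), which encodes SLUG, had 6, 0 and 0 counts in control and 0, 4 and 5 in shtRF. SNAI1 (chromosome 20, 49982999 to 49988886, plus strand), which encodes SNAIL, had 2, 0 and 0 counts in control and 1, 0 and 0 in shtRF. TWIST1 (chromosome 7, 19020991 to 19117672, minus strand) had 2 counts in control replicate 3 and 0 in the other 5 libraries. SNAI1 and TWIST1 were thus at or under the floor of 3 counts in every library, SNAI2 exceeded it in 3 libraries and ZEB2 in 5. In TWIST1, 6.94% of the exonic bases are shared with AC003986.6, which had 6 counts in control replicate 2 and 0 elsewhere. No difference between groups was detectable for SNAI1, SNAI2 or TWIST1, for which the fit of all 36517 genes gave edgeR adjusted p-values of 0.874, 0.859 and 0.522.

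By the correlation of log2(CPM + 1) over the 6 libraries, the genes most like CDH2 among those with a mean of at least 5 CPM were EIF2AK2, RASSF8 and UBE2L6, with Pearson r of 0.999 for each. For CDH1 they were SLC12A9, a gene with a clone name and RSPRY1 (r = 0.997, 0.997 and 0.996). For ZEB1 they were CATSPER2P1, ST20-AS1 and C9orf152 (r = 0.985, 0.983 and 0.982). The groups differ in 39.5% of the tested genes, and likeness was common for CDH2, with 1015 of 10951 genes above 0.95, and less so for CDH1 (354) and ZEB1 (24). These values describe 6 libraries in 2 groups and carry no test.

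The wider programme was read from 7 lists of 167 genes in all, of which 165 had a value and 120 were tested. Their counts are to be read against the 39.5% of all tested genes that were called and the median log2 fold change of -0.0025 over all tested genes. That share was not matched to the levels of the listed genes, and no list was tested as a whole. Among the genes of these lists, KLF4 and PRKD1 were named by a rule on size, and the others named below were chosen after their values were seen.

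Of 21 other cadherins, 13 had at most 18 counts in any library and were not tested, and of the 8 tested 2 rose and none fell (median log2 fold change 0.06). CDH3 encodes P-cadherin, which is found in basal breast epithelium. It had 422, 416 and 380 counts in control and 682, 674 and 552 in shtRF, and all 3 shtRF libraries were above control. CDH3 rose from 5.58 ± 0.866 to 9.48 ± 0.500 CPM, or by 0.77 ± 0.11 (SE) on the log2 scale (edgeR adjusted p = 8.90e-06). CDH7 was the other, from 1.80 to 3.56 CPM (log2 fold change 0.97, edgeR adjusted p = 0.000153). Of the catenins and other adherens junction genes, 18 of 20 were tested, 5 rose and 4 fell (median 0.06). CTNNB1, which encodes beta-catenin, the partner of the cadherin tail, fell from 63.8 ± 2.28 to 50.7 ± 2.86 CPM, and CTNND1, which encodes p120-catenin, rose from 250 ± 5.32 to 292 ± 6.26 CPM (edgeR adjusted p = 8.52e-05 and 0.00138). CTNNA1, which encodes alpha-catenin, had a log2 fold change of 0.07 (adjusted p = 0.331).

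Among 29 tested genes of the epithelial programme (of 30), 10 rose and 6 fell, with a median of 0.13. KLF4, an epithelial zinc finger factor, had 242, 372 and 326 counts in control and 787, 687 and 746 in shtRF. The groups were far apart, and KLF4 rose from 4.24 ± 0.618 to 11.1 ± 1.02 CPM, which is 1.38 ± 0.11 (SE) on the log2 scale (edgeR adjusted p = 2.38e-09). The epithelial factor ELF3 (log2 fold change 0.72), the tight junction gene MARVELD3 (0.65) and the protease inhibitor gene SPINT1 (0.43) rose too. Among the 6 that fell were TP63 (-0.54), MAL2 (-0.41), EHF (-0.265) and GATA3 (-0.14), with edgeR adjusted p = 0.0201, 5.29e-06, 0.000739 and 0.0397. Of the grainyhead family, GRHL1 rose by 0.16 on the log2 scale, while GRHL2 and GRHL3 fell by 0.16 and 0.33 (edgeR adjusted p = 0.0259, 0.0171 and 0.00132). The splicing regulators ESRP1 and ESRP2, which keep epithelial isoforms, had log2 fold changes of 0.05 and 0.05 (adjusted p = 0.495 and 0.540). The keratins of simple epithelia, in none of the 7 lists, were higher in shtRF, KRT8 from 1557 ± 23.6 to 2691 ± 171 CPM and KRT18 from 386 ± 14.8 to 601 ± 28.9 CPM (edgeR adjusted p = 3.88e-10 and 5.10e-09).

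Of 40 mesenchymal and matrix genes, 39 had a value and 18 were tested, and the 21 others never exceeded 16 counts. Of the 18, 2 rose and 5 fell, with a median of -0.15, and 38.9% called is close to the 39.5% of all genes. TNC, which encodes the matrix protein tenascin C, fell from 464 ± 6.11 to 273 ± 7.6 CPM (log2 fold change -0.76 ± 0.05, SE; edgeR adjusted p = 1.01e-10). COL1A1 fell from 32.2 ± 2.87 to 20.9 ± 0.329 CPM. MSN, which encodes moesin, had 56, 76 and 72 counts in control and 8, 14 and 20 in shtRF, a fall of log2 -2.12 ± 0.38 (SE; edgeR adjusted p = 0.000103). ITGAV and ITGB1, which encode subunits of the fibronectin-binding integrins, rose by 0.21 and 0.22 on the log2 scale.

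Of 19 further transcription factors linked to EMT, 18 had a value and 11 were tested, of which 1 rose and 5 fell (median -0.26). SOX4 fell from 52.7 ± 2.64 to 28.5 ± 1.40 CPM, a log2 difference of -0.89 ± 0.06 (SE; edgeR adjusted p = 1.27e-10). The homeobox factor MSX2 fell by 0.96 on the log2 scale. FOXC1 was the 1 that rose, with 18, 30 and 24 counts in control and 58, 48 and 46 in shtRF (log2 fold change 1.21, edgeR adjusted p = 0.00732).

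Among partners and turnover factors of the EMT transcription factors, 24 of 25 were tested, 6 rose and 10 fell (median -0.13), 66.7% called against 39.5% of all genes. PRKD1, a kinase that phosphorylates SNAIL, had 290, 300 and 342 counts in control and 150, 117 and 90 in shtRF. It fell from 4.24 ± 0.246 to 1.76 ± 0.346 CPM, a log2 difference of -1.26 ± 0.16 (SE; edgeR adjusted p = 1.31e-06). The co-repressor gene CTBP2 rose by 0.41 on the log2 scale, and its paralogue CTBP1 had a log2 fold change of -0.02 (edgeR adjusted p = 0.767). The histone deacetylase genes HDAC1 and HDAC2 fell by 0.41 and 0.35, and EZH2 and SUZ12, of the polycomb complex, fell by 0.37 and 0.29. Of the 12 genes of the TGF-beta input, a known inducer of EMT, all were tested, 4 rose and 2 fell (median 0.15). Of the ligand genes, TGFB3 rose from 211 to 249 CPM and TGFB2 from 1.79 to 2.66 CPM, while TGFB1 fell by 0.31 on the log2 scale (edgeR adjusted p = 0.000815, 0.00910 and 0.000858). The receptor gene TGFBR1 rose by 0.47 and SMAD3, which carries the signal to the nucleus, by 0.50 on the log2 scale, and SKIL, which encodes an inhibitor of SMAD proteins, fell by 0.51.

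**Figure D4:**
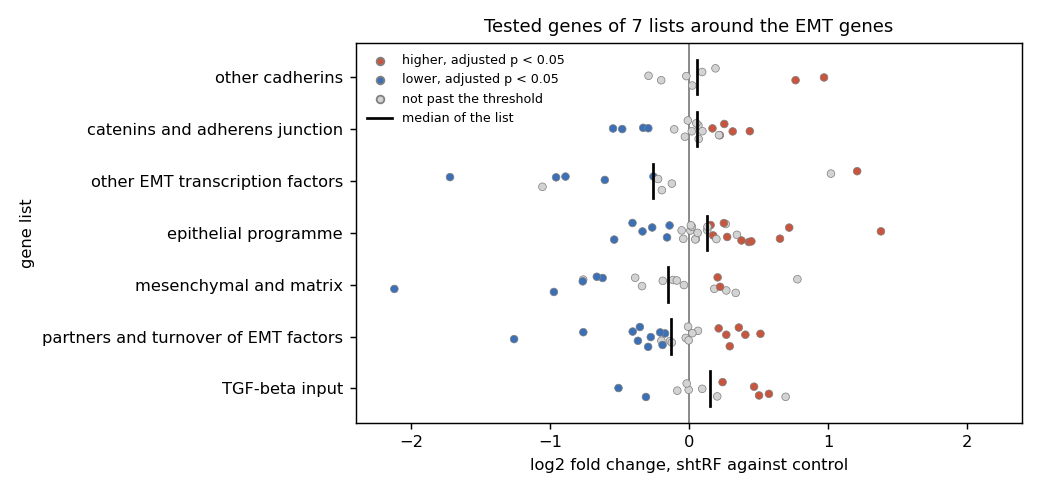
Log2 fold change of shtRF against control for the 120 tested genes of the 7 lists, with 1 point per gene (red, higher; blue, lower; grey, adjusted p of 0.05 or more) and a black line at each list's median. Medians run from -0.26 for the other EMT transcription factors to 0.15 for the TGF-beta input, and each list has genes on both sides of 0.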

How the data were processed

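The authors deposited raw counts of reads per gene for the 6 libraries, with exon coordinates on GRCh38 and exonic length. The submitters' processing notes name Trimmomatic 0.36, featureCounts of Subread 1.5.1 and edgeR 3.12.1, and the aligner is not given in the sources used here. They also deposited RPKM values, of which 4997 complete genes were used here. For the 4991 matched by symbol, 100% equalled the count divided by length and library total within a relative tolerance of 0.001, so RPKM was recomputed from the counts for all genes.

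Groups were taken from the sample titles. Counts were tested with edgeR 4.0.16 (R 4.3.3): filterByExpr with the group, TMM scaling (factors 0.961 to 1.03) and the quasi-likelihood test with group as the only term, adjusted by Benjamini-Hochberg over 19628 genes. Standard errors were derived from each estimate with its F statistic. The TMM factors enter the CPM values, except for the floors, the summed levels and the Poisson limits, which rest on raw library totals. The coefficient of variation between replicates was 7.56%, and the first principal component of log2(CPM + 1) held 76.4% of the variance. No pair of replicates agreed within sampling noise (chi-square per degree of freedom 5.93 to 17.2). Replicate numbers did not pair the libraries: same-numbered deviations correlated at 0.059, 0.018 and 0.017. The procedure was tested on simulated data.

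Named genes were all members, genes overlapping at least 5% of a member's exonic bases, the 3 genes most like each called member of at least 1 CPM, and per list up to 3 rises and 3 falls past an adjusted p of 0.05, a log2 fold change of 1 and a mean of 1 CPM. Exceptions are named as such. AFDN and TBXT were matched by an older symbol. The values of 1 list gene, which is included in the counts and the median of its list, are not reported here. The members, lists and tests were chosen with earlier results of these data known. Alternatives used limma 3.58.1 and DESeq2 1.42.0.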

Additional observations from a re-analysis of the deposited data

How the results depend on the processing

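The direction of CDH1, CDH2, FN1 and ZEB1 was the same in all 15 alternatives: RLE and upper quartile scaling, 2 other filters, DESeq2, limma-trend on RPKM with 2 pseudocounts, halved counts, a replicate term and leaving out each library. CDH2 passed the threshold in 15 of 15 (log2 fold change -1.50 to -0.82), CDH1 in 13 (0.18 to 0.32), ZEB1 in 9 (0.10 to 0.86) and FN1 in 0 (-0.31 to -0.06, adjusted p 0.0837 to 0.440). On log2(RPKM + 1) and log2(RPKM + 0.1) 1 member was called instead of 3, and CDH1 (0.18 and 0.22) and ZEB1 (0.10 and 0.38) lost their calls. With 1 library left out, ZEB1 ran from 0.41 to 0.86 and 2 or 3 members were called. The log2 difference of the CDH2 to CDH1 ratio was -1.57 with 0.1 RPKM added to each, and -1.75 to -1.64 with 1 library left out. The smallest difference of each of the 4 genes came from log2(RPKM + 1). Such differences are not on the scale of the edgeR fold changes, since the added constant makes them smaller and no TMM factor enters. The cause of the lost CDH1 and ZEB1 calls was not tested.

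The replicate block, in which the number was a term though it does not pair the libraries, changed no call of a member: CDH1 0.28, CDH2 -1.40, FN1 -0.24 and ZEB1 0.60, with 4123 genes higher and 3776 lower against 4046 and 3704. Over all alternatives 2900 to 4123 genes were higher and 3053 to 4174 lower. In the lists, the count of epithelial genes that fell was 3 without shtRF replicate 2, of mesenchymal genes that rose 1 on both RPKM scales, and of other EMT factors that rose 0 with a filter of 1 CPM and 2 without control replicate 2. ZEB2 had enough counts in the fits without control replicate 1 or without any 1 of the shtRF replicates, and passed in none (adjusted p 0.0964 to 0.537). Depth limits VIM, SNAI1, SNAI2, ZEB2 and TWIST1, for which only large differences could have been seen.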
